A study of Caenorhabditis elegans with 12 samples.

Results

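Major sperm protein (MSP) and related small sperm proteins of Caenorhabditis elegans were represented on the array by 55 of 22625 probe sets. A probe set, the group of probes that reports 1 transcript or a few near-identical ones, was taken as a member where the array's annotation gave it 1 or more gene symbols, all of them msp, msd, ssp or nspd followed by a number. The members were 31 msp, 4 msd, 10 ssp and 10 nspd probe sets, which together stood for 56 of the 18217 genes named on the array. Of the 55, 40 stood for 1 gene and 15 for several paralogs, up to 4 in a probe set. The probe-set type showed how specific the probes were: 47 were of type x_at, in which some probes also match other transcripts, 1 was of type s_at, shared within a family, and 7 were of the plain type at. A further probe set shared by 17 genes mixed msp genes with others and was left out by the rule.

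The arrays measured transcripts in whole bodies of wild-type N2 worms, 1 array per RNA sample, with 3 biological replicates from separate experiments in each of 4 groups. The groups were males fasted for 48 h, males fed ad libitum, hermaphrodites fasted for 48 h and hermaphrodites fed ad libitum. Every group was grown at 20 C, separated by sex through a mesh as young adults, kept from then on with FUdR at 200 ug/ml to stop progeny from hatching, divided by food on day 2 of adulthood and collected on day 4. FUdR blocks DNA synthesis, so all groups, controls included, carry its effect on the germline, and no group without it was analysed here.

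MSPs are the building blocks of the filaments that drive the crawling of nematode sperm, which have no flagellum and move by a pseudopod. They are also released from sperm as a signal that makes oocytes resume meiosis and the gonadal sheath contract. Their genes form a large family of near-identical copies, transcribed while spermatocytes develop. Msd genes encode proteins with an MSP domain, ssp stands for sperm-specific family class P, and nspd for nematode-specific peptide family group D, whose members are likewise known from the sperm-forming germline. Males make sperm throughout adult life, whereas hermaphrodites make a limited store before adulthood and then switch to oocytes, so adult hermaphrodites carry sperm that is no longer being made.

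RefSeq's gene table (assembly WBcel235), from which names, gene types, gene order and lengths were taken, held all 56 member genes. Of its 64 genes with these names, 8 had no member probe set, namely msp-37, msp-42, msp-52, msp-58, msp-71, nspd-10, nspd-12 and ssp-28. Of the 30 msp genes represented, 28 had the same length of 384 bases in that table, where nearly all member genes (53 of 56) had a length that is a multiple of 3, which marks it as coding length. Several members lay side by side, with no other protein-coding gene or pseudogene of the table between them. They were msp-33 and msp-32, msp-63 and msp-142, msp-57 and msp-53, msp-81 and msp-10, ssp-36 and msp-79, and msp-77 and ssp-32. Because the copies are so alike, the levels of single msp genes were uncertain, and a probe set named for 1 msp gene may carry signal of others.

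Values are deposited log2 signals, so a difference of 1 is a doubling of the signal. Differences were tested with limma across all 15913 probe sets that passed a filter on low values (above log2 6.01 on at least 3 of the 12 arrays), and a probe set was called where the Benjamini-Hochberg adjusted p over these was under 0.05. Of the 55 members, 54 passed the filter and nspd-8 did not. Of the 54, 42 were above the filter's level on at least 3 hermaphrodite arrays and 12 passed only through the male arrays, so that the count of members tested favours those that are high in males.

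Both hermaphrodite arrays of replicate 1 stood apart for these genes. The median msp level was 9.37 on the fasted hermaphrodite array of replicate 1, against 7.22 and 7.04 on those of replicates 2 and 3. On the fed hermaphrodite arrays it was 11.46 in replicate 1, against 7.64 and 7.91 in replicates 2 and 3. Replicate 1 was the highest of 3 for 47 of 55 members in fasted hermaphrodites (27.4% of all probe sets) and for 51 of 55 in fed hermaphrodites (28.6% of all probe sets). It was the highest in both groups for 46 of 55 members, among them 30 of 31 msp probe sets, against 9.85% of all probe sets. Array 1 exceeded the mean of arrays 2 and 3 by a median of 2.07 over the msp members in fasted hermaphrodites and by 3.36 in fed ones, where the medians over all probe sets were -0.08 and -0.01. In males replicate 1 was the lowest of 3 for 49 of 55 members in the fasted and 48 of 55 in the fed group (35.2% and 37% of all probe sets), with a median SD of 0.23 in each.

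Lists of other genes were read on the same 2 arrays. Of 11 genes of other sperm families on the array (such as ssq, spch and gsp), replicate 1 was the highest for 4 in fasted and 8 in fed hermaphrodites. Their summed signal was 402 to 449 in fasted hermaphrodites, and 1012 in fed replicate 1 against 365 and 526 in fed replicates 2 and 3. Of 20 genes of sperm assembly, activation and fertilization, replicate 1 was the highest for 2 in fasted and 7 in fed hermaphrodites. Of 12 male somatic and seminal genes it was the highest for 5 in fasted and 3 in fed hermaphrodites, with a summed signal of 2493 to 4104 in fasted and 3313 to 3992 in fed hermaphrodites, against 21070 to 23590 in fasted males and 25869 to 27350 in fed males. Of the 12, only try-5 and swm-1 were above the filter's level on any hermaphrodite array. Replicate 1 was the highest in both groups for mab-3 and klp-6, with mab-3 at 3.99, 2.62 and 2.33 in fasted and 5.33, 1.80 and 2.23 in fed hermaphrodites, whereas lov-1 and cwp-1 were lowest in fed replicate 1, at 0.41 and 0.59. Of 12 oocyte genes replicate 1 was the highest for 7 in fasted and 1 in fed hermaphrodites. The part of any of these in the members' results was not tested, and results that rest on hermaphrodites are given with and without both arrays.

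**Figure D1:**
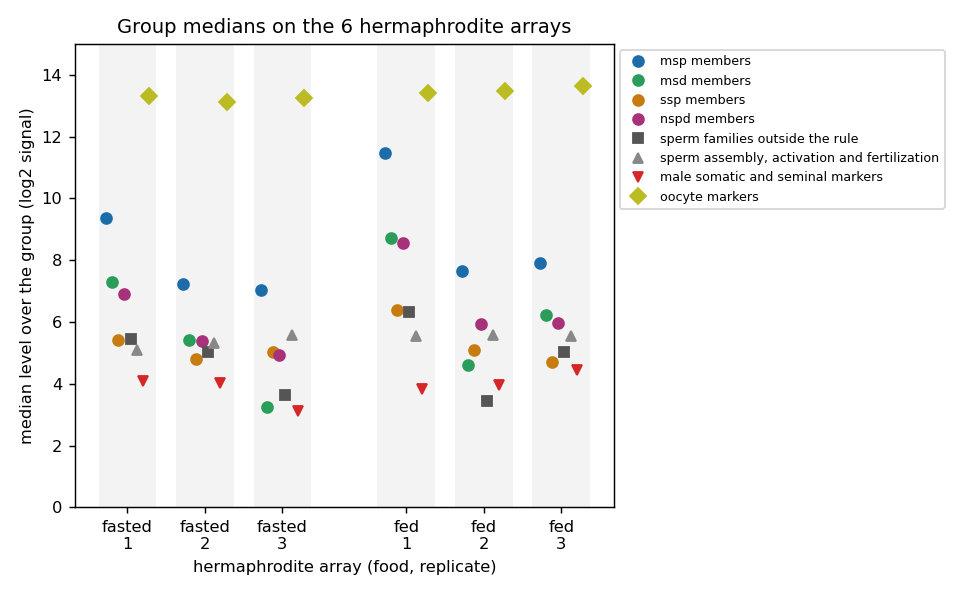
Median level (log2 signal) of the 4 member families and of 4 lists of other genes on each of the 6 hermaphrodite arrays, with 1 point per family or list within each grey band. The msp median is 9.37 on fasted array 1 and 11.46 on fed array 1, and between 7.04 and 7.91 on the other 4, while the oocyte median stays between 13.12 and 13.64.

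The sexes were compared first. In fed worms, 53 of 54 tested members were higher in males than in hermaphrodites and none was called lower, where 38.9% of all tested probe sets were called higher and 35.9% lower. The median difference, male fed minus hermaphrodite fed, was 5.88 (58.9-fold), against 0.13 over all tested probe sets. In fasted worms all 54 tested members were called higher in males, where 38% of all tested probe sets were called higher and 32.7% lower, with a median difference of 6.79 (111-fold), against 0.12 over all tested probe sets. Male and hermaphrodite arrays did not overlap for 53 of 55 members in fed and 54 of 55 in fasted worms, against 33.5% and 32.2% of all probe sets higher without overlap. Of the 42 members that were also above the filter's level in hermaphrodites, 41 were called higher in fed males and 42 in fasted males, with median differences of 5.95 and 6.93. The other 12 were tested only because they were high in males, so that their calls follow from the filter. Their fitted differences rest on hermaphrodite values below the filter's level. With those values raised to that level, a step added after the values were seen, their differences ran between 1.52 and 6.97 in fed and between 1.69 and 7.56 in fasted worms. In whole worms, fewer cells that express a gene and less of its RNA per cell cannot be told apart.

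**Figure D2:**
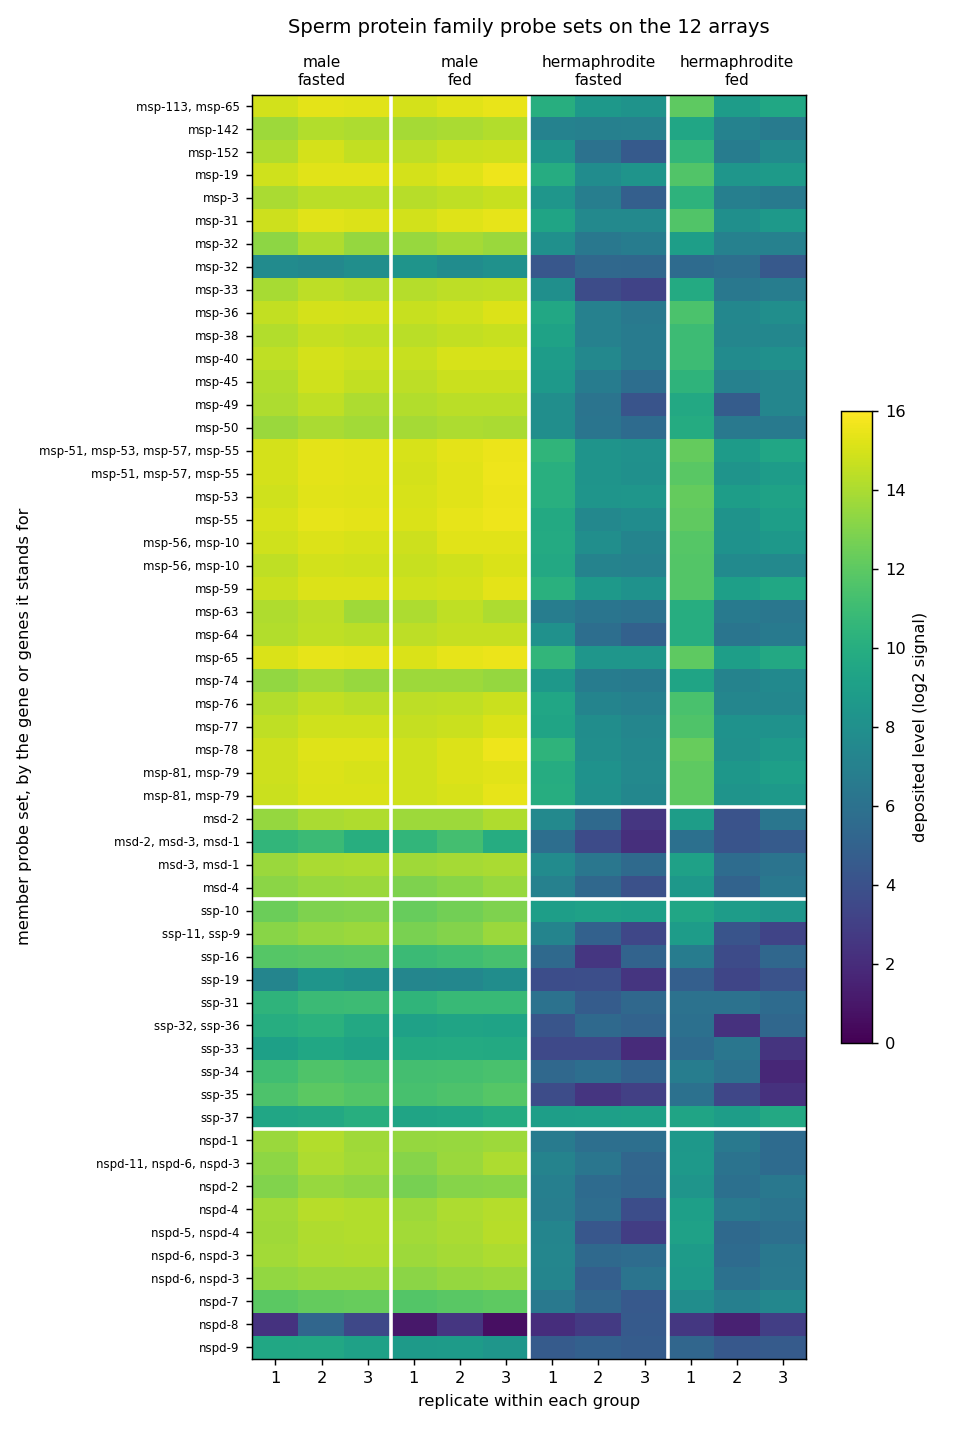
Deposited level (log2 signal, colour) of the 55 member probe sets (rows, grouped as msp, msd, ssp and nspd by white lines) on the 12 arrays (columns, by group and replicate). Male arrays are uniformly bright for nearly all rows, hermaphrodite arrays are darker with replicate 1 the brightest of 3 in most rows, ssp-37 is alike on all arrays and nspd-8 is dim on all.

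The MSP genes themselves were among the brightest probe sets of the male arrays. Of the 50 brightest probe sets of an array, members made up 13 to 16 on fasted male arrays and 14 to 16 on fed male arrays, all of them msp, and none on any hermaphrodite array. The highest value of the whole table belonged to an msp member on a male array. Members took 4.59% to 5.85% of the summed signal of fasted male arrays and 4.76% to 5.90% of fed male arrays, against 0.0368% to 0.143% of fasted and 0.0532% to 0.513% of fed hermaphrodite arrays. Whether probes this bright were near the scanner's limit was not tested here.

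All 31 msp probe sets were higher in males in both feeding states. The differences ran between 2.74 and 7.09 with a median of 5.79 in fed worms, and between 2.68 and 9.21 with a median of 6.69 in fasted worms. The 4 msp probe sets of 1 gene with the highest mean over the 12 arrays were those of msp-65, msp-53, msp-55 and msp-59. Msp-55 had levels of 15.05, 15.41 and 15.37 in fasted males and 15.09, 15.39 and 15.59 in fed males, against 9.69, 7.50 and 7.76 in fasted hermaphrodites and 12.07, 8.24 and 9.0 in fed hermaphrodites. The 6 male arrays of msp-55 lay within a narrow band and well above every hermaphrodite array, of which fed replicate 1 came closest. Its difference was 5.59 ± 0.79 (SE, adjusted p = 3.58e-05) in fed and 6.96 ± 0.79 (adjusted p = 5.94e-06) in fasted worms. Msp-65 differed by 5.12 ± 0.68 in fed and 6.16 ± 0.68 in fasted worms, msp-53 by 5.18 and 6.17, and msp-59 by 4.94 and 6.02.

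The largest msp differences were those of msp-49, msp-64 and msp-33 in fed worms, and of msp-33, msp-152 and msp-49 in fasted worms. Msp-33 had levels of 13.92, 14.44 and 14.22 in fasted males and 14.25, 14.38 and 14.44 in fed males, against 7.96, 3.74 and 3.23 in fasted hermaphrodites and 9.78, 6.42 and 6.77 in fed hermaphrodites. Its fasted hermaphrodite arrays 2 and 3 were below the filter's level while array 1 was above it. The difference of msp-33 was 6.70 ± 1.06 (adjusted p = 9.36e-05) in fed and 9.21 ± 1.06 (adjusted p = 6.73e-06) in fasted worms. Msp-49 differed by 7.09 ± 1.04 in fed and 8.09 ± 1.04 in fasted worms. Msp-64 differed by 6.96 and 8.01, and msp-152 by 6.36 and 8.24.

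Msp-32 was measured by 2 probe sets that differed in size of effect. The x_at probe set had levels of 13.28, 14.08 and 13.46 in fasted males and 13.54, 13.83 and 13.59 in fed males, against 8.05, 6.39 and 6.74 in fasted hermaphrodites and 8.97, 7.03 and 7.06 in fed hermaphrodites. The plain probe set had levels of 7.71, 7.47 and 7.93 in fasted males and 8.30, 7.79 and 8.08 in fed males, against 4.34, 5.42 and 5.32 in fasted hermaphrodites and 5.61, 5.87 and 4.47 in fed hermaphrodites. Both put every male array above every hermaphrodite array. The sex difference was 5.97 ± 0.50 in fed and 6.55 ± 0.50 in fasted worms by the x_at probe set. By the plain one, whose 6 hermaphrodite values were all below the filter's level, males were at least 4.12-fold higher in fed and at least 3.23-fold higher in fasted worms, counted from that level, and the fitted differences were 2.74 ± 0.38 and 2.68 ± 0.38. The plain probe set was also the 1 msp probe set that did not have replicate 1 as the highest in fasted and fed hermaphrodites.

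All 4 msd probe sets were higher in males. The one shared by msd-2, msd-3 and msd-1 was tested only because it was high in males, so its call follows from the filter. Msd-2 had levels of 13.44, 14 and 14.12 in fasted males and 13.63, 13.64 and 14.07 in fed males, against 7.56, 5.45 and 2.54 in fasted hermaphrodites and 8.88, 4.09 and 6.28 in fed hermaphrodites. The hermaphrodite arrays of msd-2 were spread widely, with replicate 1 the highest in both feeding states. Its difference was 7.36 ± 1.16 (adjusted p = 9.10e-05) in fed and 8.67 ± 1.16 (adjusted p = 2.53e-05) in fasted worms. The probe set shared by msd-3 and msd-1 differed by 6.83 and 7.32, and msd-4 by 6.52 and 8.0.

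The ssp family was less uniform. Of 10 ssp probe sets, 9 were called higher in fed males and 10 in fasted males. Only ssp-10 and ssp-37 of them were above the filter's level on at least 3 hermaphrodite arrays. The rest were tested only because they were high in males, so their calls follow from the filter. Fitted medians were 4.89 in fed and 5.65 in fasted worms. The fitted ranges were the widest of the 4 families, 0.23 to 7.70 in fed and 0.67 to 8.68 in fasted worms. These medians and upper ends rest largely on hermaphrodite values below the filter's level. Ssp-35, by a plain probe set of its own, had levels of 11.56, 11.95 and 11.73 in fasted males and 11.35, 11.54 and 11.77 in fed males, against 3.69, 2.46 and 3.04 in fasted hermaphrodites and 5.95, 3.40 and 2.28 in fed hermaphrodites. Every hermaphrodite value of ssp-35 was below the filter's level. Counted from that level, ssp-35 was at least 46.5-fold higher in males in fed worms and at least 53.1-fold higher in fasted worms. Most hermaphrodite values of ssp-34, ssp-16, ssp-31 and the probe set shared by ssp-11 and ssp-9 were also below it. With these raised to the filter's level, the differences were 5.01 in fed and 5.33 in fasted worms for ssp-34, 4.86 and 5.89 for ssp-16, 4.68 and 4.72 for ssp-31, and 6.18 and 7.0 for ssp-11 and ssp-9.

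Ssp-37 and ssp-10, both x_at probe sets, were the exceptions with clear hermaphrodite signal. Ssp-37 had levels of 9.44, 9.64 and 10.02 in fasted males and 9.32, 9.47 and 9.82 in fed males, against 8.94, 9.04 and 9.11 in fasted hermaphrodites and 9.36, 8.94 and 9.63 in fed hermaphrodites. Fed males and fed hermaphrodites overlapped, and the difference of 0.23 ± 0.20 was not called (adjusted p = 0.318). In fasted worms ssp-37 was higher in males by 0.67 ± 0.20 (adjusted p = 0.00952). Under median centring of the arrays the ssp-37 difference was -0.31 (adjusted p = 0.223) in fed and 0.04 (adjusted p = 0.864) in fasted worms, so neither its direction in fed worms nor its call in fasted worms held. Quantile normalization moved it the other way in fed worms, to a called difference of 0.54 (adjusted p = 0.0301). Ssp-10 had levels of 12.38, 12.90 and 12.98 in fasted males and 12.30, 12.60 and 12.88 in fed males, against 8.94, 9.15 and 9.0 in fasted hermaphrodites and 9.49, 8.84 and 8.41 in fed hermaphrodites. Its difference was 3.68 ± 0.25 in fed and 3.72 ± 0.25 in fasted worms, and its 6 hermaphrodite arrays lay well above the filter's level.

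All 9 tested nspd probe sets were higher in males, with a median difference of 6.68 in fed and 7.46 in fasted worms. The probe set shared by nspd-5 and nspd-4 had levels of 13.73, 14.12 and 14.16 in fasted males and 13.80, 14 and 14.28 in fed males, against 7.31, 4.34 and 2.90 in fasted hermaphrodites and 9.13, 5.45 and 5.82 in fed hermaphrodites. In each feeding state 2 of its 3 hermaphrodite values were below the filter's level. With these raised to that level, the difference was 6.97 in fed and 7.56 in fasted worms. Nspd-4 alone differed by 6.75 and 8.62, nspd-1 by 6.68 and 7.70, and nspd-2 by 6.14 and 7.35. Nspd-9, a plain probe set, was below the filter's level on all 6 hermaphrodite arrays and at least 6.22-fold higher in males in fed and at least 10.5-fold higher in fasted worms, counted from that level. Nspd-8 stayed below the filter's level on all 12 arrays, between 0.66 and 5.30, and was not tested.

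Leaving out both hermaphrodite arrays of replicate 1 gave 53 of 54 called higher in fed worms (36.8% of all tested probe sets) and 54 of 54 in fasted worms (34.9%), with medians of 6.89 in fed and 7.55 in fasted worms. The plain probe sets of 1 gene, which have no sign of cross-hybridization, give no independent check of the sex difference: of these 7, 6 were tested, all 6 only through the male arrays. Scaling moved the medians by less than 1: under median centring they were 5.34 and 6.17, and under quantile normalization 5.51 and 6.57.

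**Figure D3:**
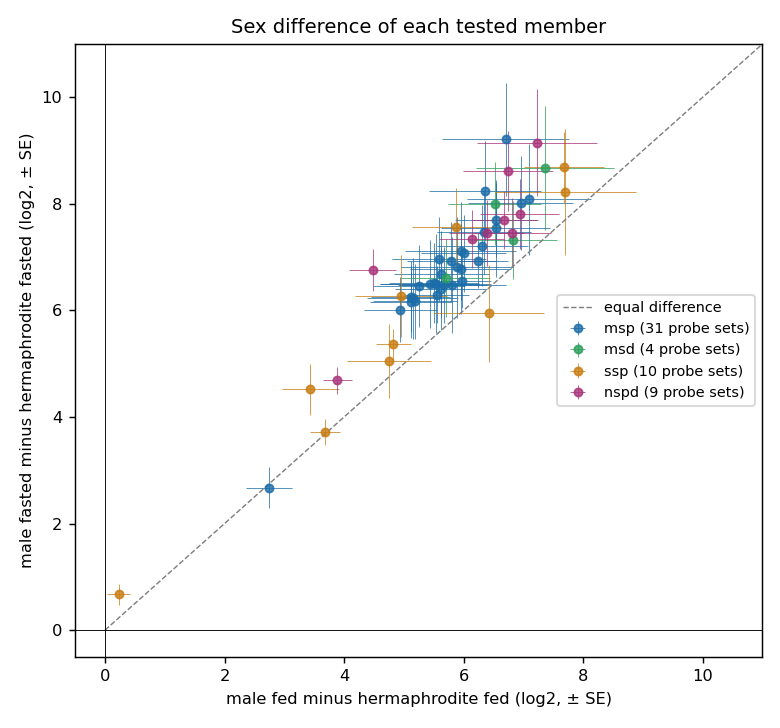
Sex difference of each of the 54 tested members in fed worms (x axis, male fed minus hermaphrodite fed, log2) and in fasted worms (y axis, male fasted minus hermaphrodite fasted, log2), with bars of 1 SE and a dashed line of equal difference. The medians are 5.88 and 6.79, and ssp-37 sits alone near the origin at 0.23 and 0.67.

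Fasting in hermaphrodites was examined next. Of the 54 tested members 1 was called lower, nspd-7, and none higher, where 5.69% of all tested probe sets were called lower and 5.72% higher. Nspd-7 had levels of 6.45, 5.29 and 4.46 in fasted hermaphrodites, against 7.86, 6.89 and 7.43 in fed hermaphrodites. The groups did not overlap, in nspd-7 alone of the 55 members against 9.53% of all probe sets, and nspd-7 fell by 1.99 ± 0.39 on the log2 scale (adjusted p = 0.00493), a 3.98-fold lower signal in fasted worms. It was lower in the fasted array of each of the 3 replicate pairs, and 2 of its 3 fasted values were below the filter's level. The call was lost without replicate 2 (-2.19, adjusted p = 0.0785) and without replicate 3 (-1.50, adjusted p = 0.0607), each left out of all groups.

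Most other members had negative differences that did not pass the test. The median difference, fasted minus fed, was -1.08 over the 54 members, against 0.09 over all tested probe sets, and 51 of 54 were below 0 (at an unadjusted p under 0.05, 4 members were lower). The median depended on which hermaphrodite arrays of replicate 1 were kept. Without the fed one the median was -0.10 and 31 of 54 members, 18 of 31 msp among them, were below 0. That fit kept the fasted array of replicate 1, which was the highest of 3 for 47 of 55 members. Without the fasted hermaphrodite array of replicate 1 the median was -1.73, and without both it was -0.72. In each of the 3 replicate pairs the fasted hermaphrodite array was the lower one for 37 of 55 members, against 17.5% of all probe sets. The 31 msp probe sets had a median of -1.15 with a range between -2.68 and -0.29. None of them was called, and 1 was lower at an unadjusted p under 0.05. By family, the medians were -1.11 for msd, -0.39 for ssp (3 of 10 above 0) and -0.95 for nspd. Of the msp members, msp-33 had the largest difference, -2.68 ± 1.06 (adjusted p = 0.137), with the levels given above, and msp-152 had -2.01 ± 0.93 (adjusted p = 0.207).

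The spread of the hermaphrodite arrays set the size of these errors. The median SD of the members was 1.14 in fasted and 1.85 in fed hermaphrodites, against 0.24 and 0.23 over all tested probe sets. With both hermaphrodite arrays of replicate 1 left out, 10 of 54 members were called lower, where 4.33% of all tested probe sets were. They were nspd-7, msp-33 (-3.10, adjusted p = 1.79e-05), msp-152 (-1.91, adjusted p = 0.026), msp-36, msp-55, msp-64, msp-65, msp-74, and the shared probe sets of nspd-5 and nspd-4 and of msp-51, msp-53, msp-57 and msp-55. The nspd-5 and nspd-4 probe set, tested only through the male arrays, had 4.34 and 2.90 in fasted against 5.45 and 5.82 in fed hermaphrodites. All of these were below the filter's level. The fasted values of msp-33, msp-152, msp-64 and nspd-7 on these arrays were also below it, and their fed values above it. The rest of the 10 were above it in both. Leaving out both arrays was chosen after the values were seen. Leaving out the fasted hermaphrodite array of replicate 1 alone gave 5 called lower (5.11% of all tested probe sets), and leaving out the fed hermaphrodite array of replicate 3 gave 3 (4.89%). Without all 4 arrays of replicate 1 the count was 7 (3.61% of all tested probe sets). It was 0 without the arrays of replicate 2 (3.2%) and 1 without those of replicate 3 (4.91%), namely ssp-33 and not nspd-7. Ssp-33, tested only through the male arrays, had levels of 3.53, 3.53 and 1.98 in fasted and 5.62, 6.30 and 2.41 in fed hermaphrodites. Of these, only fed replicate 2 was above the filter's level.

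In males, fasting changed few members. Of 54 tested, 1 was called higher and none lower, where 19% of all tested probe sets were called higher and 8.31% lower. The called member was nspd-9, with levels of 9.51, 9.57 and 9.13 in fasted males, against 8.74, 8.81 and 8.42 in fed males. The groups did not overlap, and nspd-9 rose by 0.75 ± 0.25 (adjusted p = 0.0417), a 1.69-fold higher signal in fasted males. The call was lost with no filter, under quantile normalization and median centring, and without 5 of the 6 male arrays in turn, with adjusted p between 0.0681 and 0.139.

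The msp genes of fasted males lay close to their fed level. Their differences, fasted minus fed, had a median of -0.11 and a range between -0.35 and -0.01, against a median of 0.23 over all tested probe sets. None of the 31 was called, and none passed at an unadjusted p under 0.05. The sign depended on the scaling: all 31 were below 0 in the deposited values and under median centring (median -0.30), but 13 of 31 were above 0 under quantile normalization (median -0.003). In the fit of all arrays the error of a male difference took in the spread of the hermaphrodite arrays. In a fit of the 6 male arrays alone, no msp probe set was called.

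The other families had medians slightly above 0 in fasted males, as values and not as calls. Medians were 0.05 for msd, 0.18 for ssp and 0.12 for nspd, all below the 0.23 over all tested probe sets. Above 0 were 9 of 10 ssp and 8 of 9 tested nspd probe sets. Under median centring, 5 of 10 ssp and 4 of 9 nspd probe sets were above 0. In each of the 3 replicate pairs the fasted male array was the higher one for 5 of 10 ssp and 7 of 10 nspd probe sets, and for none of 31 msp, against 37.4% of all probe sets.

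Fitting the male arrays alone called 3 members higher, where 17.4% of all tested probe sets were. They were nspd-9, ssp-16 and the probe set shared by ssp-32 and ssp-36. Ssp-16 had levels of 11.80, 11.93 and 11.99 in fasted males, against 10.90, 11.09 and 11.34 in fed males, and in that fit it differed by 0.80 (adjusted p = 0.00404), against an adjusted p of 0.481 in the fit of all arrays. The ssp-32 and ssp-36 probe set had 9.99, 10.25 and 9.68 in fasted males, against 9.16, 9.33 and 9.29 in fed males, a difference of 0.71 (adjusted p = 0.0136 with male arrays alone and 0.504 with all). In these 3 members, and higher in no others, fasted and fed male arrays did not overlap, which is 3 of 55 against 24.7% of all probe sets. Ssp-33 did not overlap in the opposite direction, with 9.12, 9.54 and 9.21 in fasted males against 9.71, 9.77 and 9.70 in fed males (-0.44, adjusted p = 0.731), 1 of 55 against 10.5% of all probe sets.

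**Figure D4:**
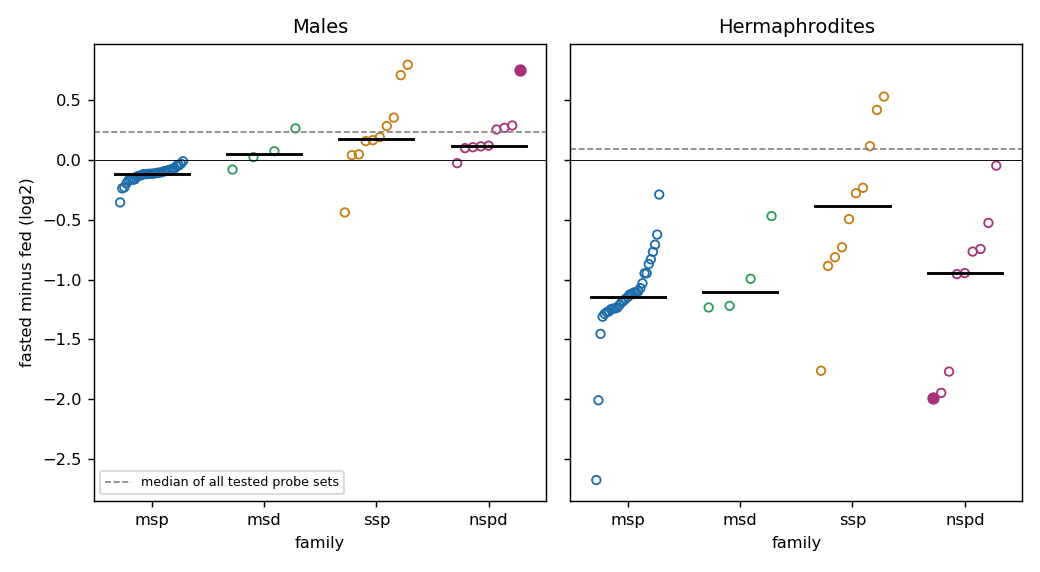
Fasted minus fed difference (log2) of each tested member by family, in males (left) and hermaphrodites (right). Filled points are called, bars are family medians and the dashed line is the median of all tested probe sets. In males the msp points lie between -0.35 and -0.01 and only nspd-9 is filled, whereas in hermaphrodites 51 of 54 points lie below 0 and only nspd-7 is filled.

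The fasting change of males was then compared with that of hermaphrodites by the interaction term. Of 54 tested members 1 was called, nspd-7, where 3.82% of all tested probe sets were called with a higher change in males. The nspd-7 change in males, 0.29 ± 0.39 (adjusted p = 0.640), exceeded that in hermaphrodites by 2.28 ± 0.55 (adjusted p = 0.0349). Its levels were 11.97, 12.25 and 12.27 in fasted males and 11.69, 11.90 and 12.02 in fed males, so the male arrays stayed together while the hermaphrodite arrays parted by food. The median of this difference over the 54 members was 1.02, against 0.11 over all tested probe sets, and 52 of 54 were above 0. Without the fed hermaphrodite array of replicate 1 that median was 0.0016 and 27 of 54 were above 0, and with both hermaphrodite arrays of replicate 1 left out it was 0.65. In 5 of 55 members the fasted array was the higher one in every male pair and the lower one in every hermaphrodite pair, against 4.57% of all probe sets. They were nspd-7, nspd-2, both probe sets shared by nspd-6 and nspd-3, and ssp-16. The male changes of the 2 shared probe sets, 0.11 and 0.12, were below the median of 0.23 over all tested probe sets. The adjusted p of nspd-7 was above 0.05 in 13 alternatives, among them median centring (0.0632) and leaving out any 1 of the 3 fed male arrays (0.0502 to 0.0770). With the fasted hermaphrodite array of replicate 1 left out, with both hermaphrodite arrays of replicate 1 left out, or with all arrays of replicate 1 left out, 2 members were called, nspd-7 and msp-33, where 3.83%, 2.06% and 0.44% of all tested probe sets were called higher in these 3 fits. The msp-33 difference was 2.51 ± 1.5 (adjusted p = 0.361) with all arrays and 2.94 (adjusted p = 0.00131) with both hermaphrodite arrays of replicate 1 left out. Without the fed hermaphrodite array of replicate 3, ssp-33 was called in place of nspd-7. All hermaphrodite values of ssp-33 but that of fed replicate 2 were below the filter's level. Without the fed hermaphrodite array of replicate 1, the fasted hermaphrodite array of replicate 2 or 3, the fasted male array of replicate 2 or 3, or all arrays of replicate 2 or 3, the count was 0.

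**Figure D5:**
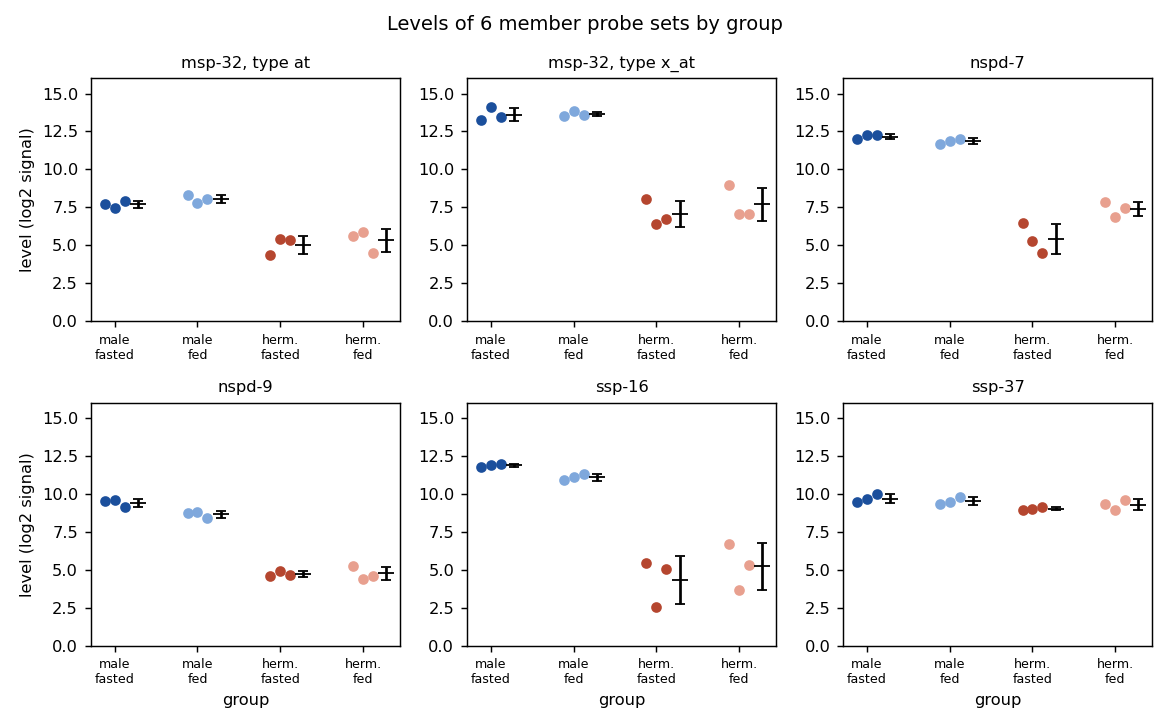
Level (log2 signal) on each array for 6 member probe sets, by group, with the mean and SD of 3 arrays in black. Both msp-32 probe sets, nspd-7, nspd-9 and ssp-16 lie higher in males, nspd-7 is lower in fasted than in fed hermaphrodites, nspd-9 and ssp-16 are higher in fasted than in fed males, and ssp-37 lies between 8.94 and 10.02 in all groups.

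Other genes of the sperm programme gave the setting of these values. The sex labels were borne out by oocyte genes, of which 12 of 12 were lower in males in both feeding states. All 10 tested male somatic and seminal genes were called higher in males. Apart from try-5 and swm-1 they were tested only because they were high in males, so their calls follow from the filter. The 10 tested genes of other sperm families were all called higher in males in both feeding states, with median fitted differences of 6.53 in fed and 7.21 in fasted worms. Only ssq-1, smz-1 and spch-1 of these were above the filter's level on at least 3 hermaphrodite arrays. The rest were tested only because they were high in males, so their calls follow from the filter. Their fitted differences, and with them the medians, rest largely on hermaphrodite values below that level. Among the rest, gsp-3 and gsp-4, protein phosphatases of sperm, had fitted differences of 7.84 and 6.42 in fed and of 7.18 and 7.52 in fasted worms. Both were above the filter's level only on the fed hermaphrodite array of replicate 1. None of the 10 was called with fasting, where 3 were lower in hermaphrodites and none in males at an unadjusted p under 0.05.

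Regulators of the sperm programme were mixed. Of 10 genes of sperm fate and msp transcription, 2 were higher and 5 lower in fed males, and 2 were higher and 6 lower in fasted males. Elt-1, a GATA factor known to drive msp transcription, had a difference of -0.01 (adjusted p = 0.965) in fed worms. Spe-44, a transcription factor of spermatogenesis, had levels of 9.44, 9.71 and 9.67 in fasted males and 9.11, 9.09 and 9.17 in fed males, against 8.06, 8.12 and 8.35 in fasted hermaphrodites and 8.82, 8.48 and 8.88 in fed hermaphrodites. It was higher in males by 0.40 (adjusted p = 0.0243) in fed and by 1.43 (adjusted p = 2.08e-06) in fasted worms. With fasting it rose by 0.48 in males (adjusted p = 0.0255) and fell by 0.55 in hermaphrodites (adjusted p = 0.0279), and these changes differed by 1.03 ± 0.20 (adjusted p = 0.0154). Both fasting calls of spe-44 were lost in several alternatives, the one in males under quantile normalization (0.34) and median centring (0.29), the one in hermaphrodites without both arrays of replicate 1 (-0.44, adjusted p = 0.19), where the interaction was 0.93 (adjusted p = 0.0626). In fasted males 5 of 10 regulators rose, against 19% of all tested probe sets, spe-44 and 4 others: fog-2 by 0.74, fog-3 by 0.68, fog-1 by 0.51 and gld-1 by 0.44. Of those 4, fog-2 alone kept its call under both other scalings.

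Genes that build, activate or use sperm differed widely in their sex difference. Of 19 tested, 15 were higher and 3 lower in fed males, and 16 were higher and 1 lower in fasted males. Only spe-5, spe-6, spe-15, spe-26, spe-39, spe-41, zipt-7.1 and cpb-1 were above the filter's level on at least 3 hermaphrodite arrays. The others were tested only because they were high in males, so their calls follow from the filter. Among these others, spe-8, a kinase of sperm activation, had a fitted difference of 6.64 in fed and 7.94 in fasted worms. That of spe-4, a presenilin of developing sperm, was 5.16 and 6.14, and that of spe-11, a sperm factor needed by the embryo, 4.78 and 7.46. Hermaphrodite values ran between 0 and 1.97 for spe-8 and between 3.18 and 5.63 for spe-4. With fasting, spe-11 was called lower in hermaphrodites (adjusted p = 0.0492), with levels of 2.25, 2.21 and 5.87 in fasted hermaphrodites, against 6.02, 5.93 and 5.55 in fed hermaphrodites. These groups overlapped, all values were near or below the filter's level, and the spe-11 call was lost in 18 of 24 alternatives, among them leaving out both hermaphrodite arrays of replicate 1 (-1.70, adjusted p = 0.264). In fasted males 3 of 19 rose, against 19% of all tested probe sets: spe-5 rose by 0.76, zipt-7.1 by 0.73 and cpb-1 by 0.64, of which spe-5 kept its call under quantile normalization and median centring.

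On the receiving side, genes listed as receptors of MSP or as responders to it were mostly lower in males. Of 21 tested, 7 were higher and 13 lower in males in each feeding state. Vab-1, an Eph receptor that binds MSP, differed by -2.60 in fed and -2.59 in fasted worms, and oma-2, a zinc-finger protein of oocyte maturation, by -6.49 and -6.19. Acy-4, an adenylate cyclase of the sheath response, and gsa-1, a G protein subunit, were higher in males by 1.35 and 1.07 in fed worms. In fasted males 5 of the 21 rose, a share near the 19% of all tested probe sets: oma-1 by 0.97, inx-14 by 0.87, sacy-1 by 0.74, plk-1 by 0.67 and air-2 by 0.43. Air-2 alone of the 5 lost its call under quantile normalization and median centring. Oma-1 had levels of 8.63, 8.80 and 9.10 in fasted males and 7.74, 7.85 and 8.04 in fed males, against 11.76, 11.63 and 11.76 in fasted hermaphrodites and 11.83, 11.92 and 12.01 in fed hermaphrodites. Fasted and fed males did not overlap, and both stayed below every hermaphrodite array. In hermaphrodites 1 of the 21 rose with fasting, sax-3 by 0.59 (adjusted p = 0.0471), a call lost in 18 of 24 alternatives.

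Lists of genes of other tissues were read with food as well. Over all tested probe sets, 19% rose and 8.31% fell in fasted males, and 5.72% rose and 5.69% fell in fasted hermaphrodites. Of 12 oocyte genes none was called by limma with fasting in hermaphrodites (0 at an unadjusted p under 0.05), and 5 rose and 2 fell in males. Of 9 intestine genes, 1 rose and 3 fell in fasted males and 5 fell in fasted hermaphrodites. Of 7 body wall muscle genes, 6 fell in fasted males and 3 in fasted hermaphrodites. Of 10 tested male somatic and seminal genes, 1 fell in fasted males, the protease inhibitor swm-1, and 1 in fasted hermaphrodites, the seminal protease try-5. Both counts are near the shares over all tested probe sets. The part of these lists in the members' values was not tested.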

How the data were processed

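Levels were read from a table that the authors deposited for the 12 arrays, which holds log2 signal made with MAS5, per the submitters' processing notes; the version is not given in the sources used here. The 2% trimmed mean of linear signal was 500.1 to 500.2 on each array. Detection calls were not used here, and the number of arrays limits the precision. Probe sets were named through the platform annotation: of 22548 that are not controls, 20766 had 1 gene, 887 several and 895 none. The 77 control probe sets were left out.

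Probe sets above the 40th percentile (log2 6.01) on at least 3 arrays were fitted with limma 3.58.1 in R 4.3.3 (lmFit, eBayes with a variance trend, 4 group means, 5 contrasts, two-sided, Benjamini-Hochberg over all 15913). The fit was tested on simulated data. For members that passed only through the male arrays, lower bounds took hermaphrodite values below the filter's level as that level. Groups came from the titles. Same-numbered arrays come from the same of 3 experiments, and across fasted and fed arrays of a sex their deviations from the group means correlated at 0.119 to 0.274, so the numbers pair the samples. The replicate number as a block was an alternative, as were other filters, scalings, a pseudocount, arrays left out and fits of the compared arrays alone.

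Members and gene lists were chosen with earlier results of these data known. Named members were, per family, the 4 brightest probe sets of 1 gene and the 3 largest called changes per contrast and direction, members that went against their family, and called genes of each list. The table held no sequence, so none is shown.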

Additional observations from a re-analysis of the deposited data

Results flagged for a closer look

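Nspd-7 was singled out because its fasting change in males exceeded that in hermaphrodites by 2.28 on the log2 scale, tested by the interaction term of the limma fit (adjusted p = 0.0349). In all 3 replicate pairs it was lower in fasted than in fed hermaphrodites and higher in fasted than in fed males.

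Further members differed between the sexes in direction in every replicate pair, higher in fasted than in fed males and lower in fasted than in fed hermaphrodites, without passing the interaction test. For ssp-16 the male change exceeded the hermaphrodite one by 1.68 (adjusted p = 0.388), and for nspd-2 by 1.21 (adjusted p = 0.395). For the 2 probe sets shared by nspd-6 and nspd-3 the values were 0.87 (adjusted p = 0.637) and 1.07 (adjusted p = 0.530). Over all probe sets, 4.57% showed this pattern. The 2 shared probe sets stand for the same genes. Their male changes of 0.11 and 0.12 were below the median of 0.23 over all tested probe sets, so their direction in males depended on the scaling. Most hermaphrodite values of ssp-16 were below the filter's level.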

How the results depend on the processing

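Over 90 single results and 2153 alternative values, 1953 kept direction and side of the threshold, 185 lost the call, 14 gained one and 1 reversed, ssp-37 in fed worms, at -0.31 under median centring. Keeping only probe sets of 1 gene with no sign of cross-hybridization left 6 members called between the sexes in fed and 6 in fasted worms, and 0 for fasting in hermaphrodites and 0 for the interaction, since fewer members were counted. These 6 were tested only through the male arrays, so their calls between the sexes follow from the filter. For fasting in males, the count of members called, 1 with all arrays, was 0 with no filter, 0 under quantile normalization, 0 under median centring, 3 with the pseudocount and 3 with only the male arrays fitted. Over all probe sets these fits called 4098, 3802, 2934, 4983 and 4135 in either direction, against 4352 in the main fit. The fit with no filter tested 22548 probe sets and the others 15913. For the interaction it was 0 when arrays were median centred, 0 when eBayes had no variance trend and 2 with both hermaphrodite arrays of replicate 1 left out, which gave 10 for fasting in hermaphrodites. Over all tested probe sets the interaction was called for 463, 563 and 516 in these fits, against 840 in the main fit. Fasting in hermaphrodites was called for 1312 in the last of them, against 1816 in the main fit. Leaving out single arrays or whole replicate numbers gave 0 to 7 called for fasting in hermaphrodites, 0 to 1 in males and 0 to 2 for the interaction. With the replicate block, the counts were 53 and 54 between the sexes in fed and fasted worms, 1 for fasting in hermaphrodites, 1 in males and 1 for the interaction. The pairing changed no member's call. Over all tested probe sets the block called 12380, 11800, 2495, 5327 and 1641 in the same order, against 11904, 11245, 1816, 4352 and 840 without it. The cause of these differences was not tested. Fits with both hermaphrodite arrays, or all 4 arrays, of a replicate left out were chosen after seeing the data. Of the members tested, 12 were above the filter's level on at least 3 arrays in males alone, where low signal limits the hermaphrodite values.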
